A study of Mus musculus with 18 samples.

Results

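The genes of 10 secreted carrier proteins of the visceral endoderm were followed by ribosome profiling through embryoid body differentiation of 3 mouse embryonic stem cell lines. They were picked by name and Ensembl identifier, by a rule that uses no measured value, although earlier results of these data were known when the list was made: Ttr (ENSMUSG00000061808), Rbp4 (ENSMUSG00000024990), Apoa1 (ENSMUSG00000032083), Apoa2 (ENSMUSG00000005681), Apoa4 (ENSMUSG00000032080), Apob (ENSMUSG00000020609), Apoe (ENSMUSG00000002985), Afp (ENSMUSG00000054932), Alb (ENSMUSG00000029368) and Trf (ENSMUSG00000032554). All 10 were found among the 51826 features of the deposited files, and all 10 passed the filter on low counts that left 13701 features for testing. Every line had the E14 background: an unedited wild type (WT), a Quaking knockout and a Sam68 knockout. Each was sampled as stem cells (day 0) and on day 10 of embryoid body culture, with 3 libraries in each of the 6 groups, described by the submitters as biological triplicates. All cultures, WT included, received cycloheximide (100 µg/mL for 15 minutes) before lysis. The sources used here do not say whether each knockout line is 1 clone or which exon was edited.

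Visceral endoderm is the epithelium that surrounds the early mouse embryo and later lines its yolk sac, and it forms on the surface of embryoid bodies. Before the liver exists, this layer secretes many of the plasma carriers that hepatocytes make later. Retinol travels in blood on retinol-binding protein bound to transthyretin, lipids travel on apolipoprotein particles, and iron travels on transferrin. Alpha-fetoprotein is the fetal relative of albumin. Quaking and Sam68 (gene Khdrbs1), both STAR proteins, bind RNA and act in splicing and other steps of its handling. Several carriers are not limited to this tissue: Apoe is also made by macrophages and glia, and Ttr by the choroid plexus.

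A count here is the number of ribosome-protected fragments assigned to a gene, and CPM scales counts by library size, corrected by TMM (a trimmed mean over features). Library totals ran from 988210 to 10646768 counts. In WT day 10 replicate 3 and Sam68 knockout day 10 replicates 2 and 3, 10 features took 60.2% to 70.4% of the counts, against at most 30.2% elsewhere. The TMM correction multiplied their library sizes by 0.363, 0.530 and 0.493, against at least 1.01 in every other library. Statements below on overlap of CPM values that involve these libraries rest on that correction. These 3 libraries are called the dominated libraries below. Leaving them out leaves 2 WT libraries and a single Sam68 knockout library at day 10, so Sam68 results in that setting assume that the lone library varies like the other groups. In such cultures fewer cells of a type, less of an mRNA per cell and less translation of it cannot be told apart. Library pool followed group: WT and Quaking knockout day 0 were in pool MIX_1, Sam68 knockout day 0 and WT day 10 in MIX_2, and both knockouts at day 10 in MIX_3. No table used here paired other Ensembl identifiers with symbols, so the counts of Qk and Khdrbs1 and of further endoderm markers were not analysed here, and the name of the tissue rests on these 10 genes' known roles.

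In the RefSeq annotation of GRCm38.p6, Rbp4 lies on chromosome 19 (38116620 to 38125321), Apob on chromosome 12 (7977629 to 8016839) and Apoe on chromosome 7 (19696244 to 19701310). Apoa2 lies on chromosome 1 (171221564 to 171226379) and Trf on chromosome 9 (103208876 to 103230286). Alb (chromosome 5, 90460870 to 90476602) and Afp (chromosome 5, 90490714 to 90508907) are direct neighbours, 14111 bases apart with 0 annotated genes between them. Apoa1 (46228630 to 46230469) and Apoa4 (46240844 to 46243458) are 10374 bases apart on chromosome 9 with 1 gene, Apoc3, between them. The annotated span of Ttr overlaps Gm16090 and that of Apoa2 overlaps Tomm40l. Reads in those shared stretches cannot be told apart, because the use of strand in counting is not given in the sources used here.

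RefSeq promoter windows, 250 bases before to 50 bases after a gene start, were found for 8 of the 10 genes with 12 starts in all. None was found for Trf, and windows of the chromosome that holds Ttr were left out beforehand. The windows of 4 genes are shown, each 5′ to 3′ on the gene's strand: the neighbours Afp and Alb, neither of which was called lower in Quaking knockout than in WT at day 10, and Rbp4 and Apoa2, which showed the largest falls among genes with a window. Capitals mark exact matches, on either strand, to short words written for liver and endoderm factors: GTTAAT for HNF1, TGTTTAC or TATTTAC for FOXA, AGATAA or TGATAA for GATA, CAAAGTCCA for HNF4, TTGCNNCAA for C/EBP, and TATAAA for the TATA box.
Afp, chr5:90490464-90490763, plus strand: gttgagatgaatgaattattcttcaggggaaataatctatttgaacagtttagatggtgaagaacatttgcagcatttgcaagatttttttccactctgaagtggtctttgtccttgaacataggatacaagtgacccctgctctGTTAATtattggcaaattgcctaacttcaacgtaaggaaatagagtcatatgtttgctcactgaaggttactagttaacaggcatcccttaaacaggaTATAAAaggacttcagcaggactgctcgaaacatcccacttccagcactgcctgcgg
Alb, chr5:90460620-90460919, plus strand: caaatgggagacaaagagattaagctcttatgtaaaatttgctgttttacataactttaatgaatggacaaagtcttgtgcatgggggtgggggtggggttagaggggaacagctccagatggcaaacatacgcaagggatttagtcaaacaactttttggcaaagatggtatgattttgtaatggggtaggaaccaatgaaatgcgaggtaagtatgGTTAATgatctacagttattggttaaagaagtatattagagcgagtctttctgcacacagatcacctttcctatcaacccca
Rbp4, one of 2 starts, chr19:38124762-38125061, minus strand: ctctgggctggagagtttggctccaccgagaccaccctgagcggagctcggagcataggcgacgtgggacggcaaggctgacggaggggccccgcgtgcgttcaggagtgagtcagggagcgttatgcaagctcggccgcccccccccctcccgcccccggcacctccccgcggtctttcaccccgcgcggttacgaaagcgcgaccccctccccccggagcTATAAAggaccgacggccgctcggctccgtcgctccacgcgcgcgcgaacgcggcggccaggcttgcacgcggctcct
Apoa2, one of 2 starts, chr1:171224804-171225103, plus strand: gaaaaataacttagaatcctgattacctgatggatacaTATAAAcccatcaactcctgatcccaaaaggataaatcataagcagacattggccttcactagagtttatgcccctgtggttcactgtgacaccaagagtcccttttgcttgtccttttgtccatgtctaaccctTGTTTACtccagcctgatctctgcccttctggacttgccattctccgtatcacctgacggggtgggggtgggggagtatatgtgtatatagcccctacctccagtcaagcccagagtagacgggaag

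Afp and Alb each carry 1 match to GTTAAT, from base -105 in Afp and from base -32 in Alb, counted from the gene start. The third start of Apoe has the same word, which was found in 7.10% of 32851 promoter windows of the same length, while the full HNF1 palindrome was in 0 of the 12 windows here. TATAAA was found in 5 of the 12 windows, 1 each of Rbp4, Apoa2, Apob, Apoe and Afp, and in 13.6% of all windows. It began at base -28 in Rbp4, -212 in Apoa2, -60 in Apob, -100 and -96 in Apoe and -7 in Afp. The word alone does not show a TATA box. TGTTTAC was found in 3 of the 12 windows (1 each of Rbp4, Apoa2 and Apoe) and in 3.65% of all windows. Of the 12 windows 1, that of Apoa1, held a GATA word (TGATAA, in 9.05% of all windows), and none held AGATAA (11.2%), TATTTAC (3.04%), CAAAGTCCA (0.475%), TTGCNNCAA (2.08%) or the full C/EBP palindrome (0.0700%). The Apoa4 window held none of these words. These matches describe letters in the window and not binding.

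Between day 0 and day 10 Ttr, Rbp4, Apoa1, Apoa2, Apoa4, Apob and Afp rose from few or no counts in all 3 lines, and Apoe rose from a level already measurable in stem cells. Alb and Trf measured below 5 CPM in every library, although their 0 counts in WT day 10 replicate 3 allow up to 7.05 CPM. The 9 genes other than Apoe together measured 3.25 ± 0.423 CPM in WT stem cells (SD, n = 3) and 5672 ± 1449 CPM in WT embryoid bodies. In Quaking knockout cells the same sum went from 2.99 ± 0.125 to 1471 ± 131 CPM. In Sam68 knockout cells it went from 3.97 ± 1.97 to 5362 ± 1536 CPM. In WT 9 of the 10 genes rose, in Quaking knockout 10 and in Sam68 knockout 8 (quasi-likelihood F test of edgeR, p below 0.05 after Benjamini-Hochberg adjustment). Of all tested features 34.9% rose in WT, 34.7% in Quaking knockout and 34.9% in Sam68 knockout. The median log2 fold change of the 10 genes was 9.57, 8.10 and 9.32 in the same order, against 0.10, 0.11 and 0.11 over all features. With genes that had no count at day 0 set at their lower bound, and without Alb in Sam68 knockout, which had no usable fold, the medians were 9.46, 6.56 and 9.83. Alb in WT rose with overlapping replicates, since WT day 10 replicate 3 had no count, and Trf in Sam68 knockout passed only without day 10 replicate 1 (edgeR adjusted p = 0.0313). Since pools nearly followed the days, an additive fit with pool as a block was also made, with 1 effect of day for all lines. It has as many terms as groups and assigns every difference between lines in the rise to pool. On the log2 scale its effect of day is the WT rise plus the Sam68 knockout rise minus the Quaking knockout rise. It is no rise common to the lines, and it depends on Quaking knockout stem cells, where Ttr, Apoa2 and Alb had no count. A missed call in this fit therefore does not show that a gene did not rise. The fit called 6 of the 10 genes higher. The shares of all features given above belong to the main fit, and the share called in the pool fit is not given here. Ttr and Apoa2 did not pass there although their log2 fold changes were 12.03 and 9.49 (edgeR adjusted p = 1.00 for both), and Alb (-0.96, adjusted p = 0.722) and Trf (1.39, 0.541) did not pass either.

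**Figure D1:**
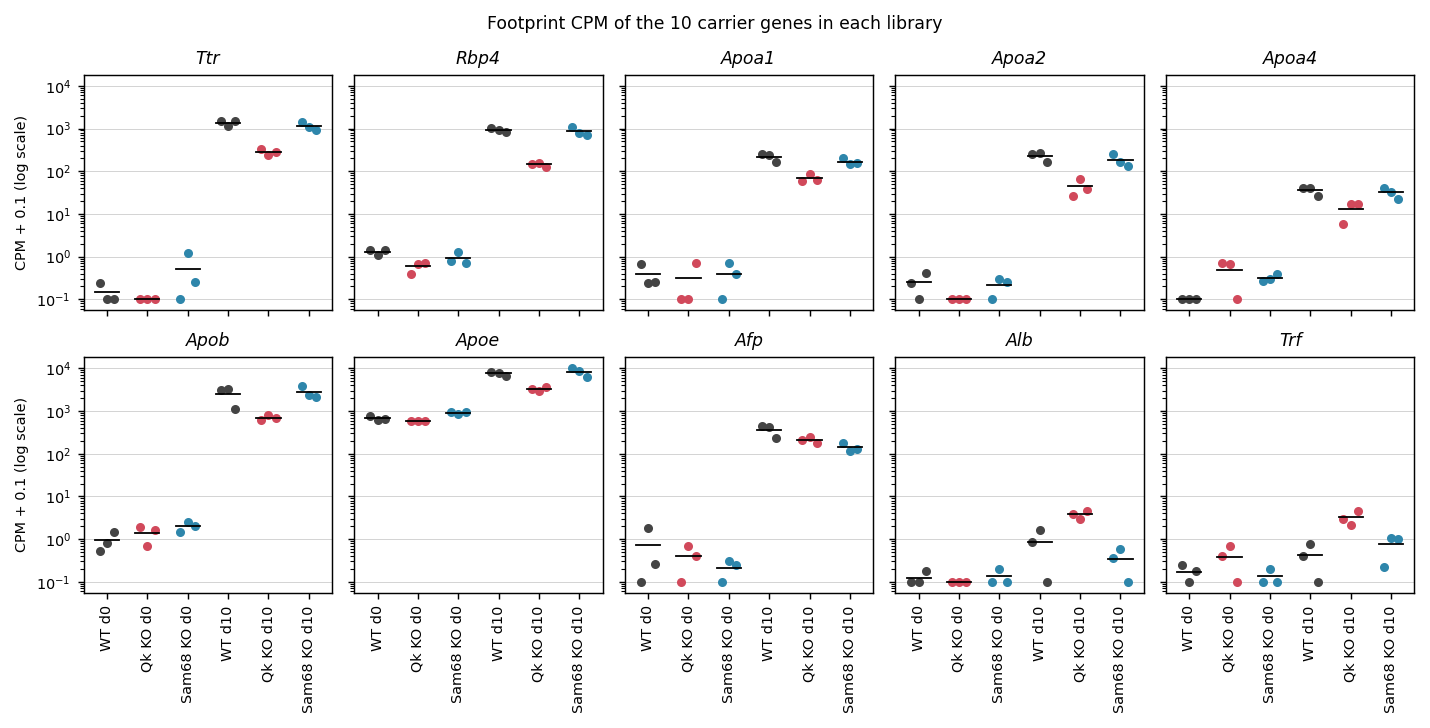
Footprint CPM plus 0.1 (log axis) of each gene in each of the 18 libraries, with points for libraries and bars for the group means of 3. At day 10 the Quaking knockout points are lowest for Ttr, Rbp4, Apoa1, Apoa2, Apoa4, Apob and Apoe, while the Alb and Trf points lie below 5 CPM.

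Ttr encodes transthyretin, which carries thyroid hormone and the retinol-binding protein. It had 1 count over the 3 WT stem cell libraries, none in Quaking knockout and 12 in Sam68 knockout, 11 of them in replicate 2. At day 10 the WT libraries held 15755 Ttr counts, a ratio to day 0 of 36541 with a counting interval of 6558 to 1443400 (95%, exact binomial, counting error only). In Quaking knockout cells the rise was at least 240-fold against a floor of 3 counts per library. The day 10 levels were 1485, 1157 and 1483 CPM in WT replicates 1 to 3, 326, 245 and 282 CPM in Quaking knockout and 1439.9, 1089.9 and 932 CPM in Sam68 knockout. Every Quaking knockout library lay below every other library of that day. Ttr was 4.84-fold lower in Quaking knockout than in WT, by -2.27 on the log2 scale (SE 0.37, adjusted p = 0.000915 by edgeR).

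Rbp4, the retinol carrier that transthyretin binds, showed the largest fall of the group. It had 33 counts in WT, 4 in Quaking knockout and 20 in Sam68 knockout stem cells. At day 10 it measured 1048, 924 and 808 CPM in WT, 149, 159.8 and 129 CPM in Quaking knockout and 1074, 799.9 and 698 CPM in Sam68 knockout. The Quaking knockout values again did not overlap with either of the others. The fold change between Quaking knockout and WT was -2.67 on the log2 scale, a 6.37-fold lower level (SE 0.17, edgeR adjusted p = 9.01e-11). The retinol carrier was also set against its partner within each library: there were 68.3 ± 12.8 Rbp4 counts per 100 Ttr counts in WT, 52.2 ± 11.3 in Quaking knockout and 74.3 ± 0.789 in Sam68 knockout (SD, n = 3). WT and Quaking knockout overlapped in this ratio (two-sided exact permutation p = 0.20, where 0.10 is the smallest that 3 against 3 allows). Sam68 knockout lay above Quaking knockout without overlap (log2 difference 0.53, exact permutation p = 0.10, or 0.171 after adjustment over 24 ratio tests), which does not pass.

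The apolipoproteins were likewise lowest in Quaking knockout. Apob, the structural protein of very low density lipoprotein and chylomicrons, measured 3169, 3284 and 1125 CPM in WT, 603, 796 and 689 CPM in Quaking knockout and 3921, 2363 and 2183 CPM in Sam68 knockout at day 10. Its WT spread came from replicate 3, a dominated library, which in TMM-scaled CPM lay above all Quaking knockout libraries. Without that scaling it did not: WT replicate 3 held 479 Apob counts of 1175919, and Quaking knockout replicate 1 held 650 of 988210. Apob was 3.63-fold lower in Quaking knockout than in WT, by -1.86 on the log2 scale (SE 0.39, adjusted p = 0.00349 by edgeR). Apoa1, the main protein of high density lipoprotein, measured 249, 239 and 167 CPM in WT and 58.4, 85.2 and 63.1 CPM in Quaking knockout (log2 fold change -1.67, SE 0.24). Apoa2, the second protein of the same particle, measured 247, 264 and 162 CPM in WT and 26.0, 66.9 and 38.7 CPM in Quaking knockout (log2 fold change -2.33, SE 0.35). Neither gene's groups overlapped in TMM-scaled CPM (edgeR adjusted p = 3.53e-05 for Apoa1 and 0.000411 for Apoa2). In Sam68 knockout Apoa1 measured 199, 150.5 and 156 CPM, and Apoa2 measured 259, 166 and 129.6 CPM.

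Apoa4, which the intestine and yolk sac load onto lipid particles, gave few counts. No WT stem cell library held a count, so its rise in WT was at least 97.2-fold. At day 10 it measured 39.6, 40.3 and 25.8 CPM in WT, 5.57, 17.0 and 17.1 CPM in Quaking knockout and 40.3, 33.0 and 22.2 CPM in Sam68 knockout. In TMM-scaled CPM Quaking knockout lay below WT in every library (log2 fold change -1.37, SE 0.31, adjusted p = 0.00240 by edgeR). With every library thinned to the smallest total this call was lost (edgeR adjusted p = 0.147), when the log2 fold change was -1.87.

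Apoe, a ligand for lipoprotein receptors, differed from the rest in its starting level. Stem cells already had 760, 621 and 641 CPM in WT, 580.4, 593 and 574 CPM in Quaking knockout and 957, 852 and 936 CPM in Sam68 knockout. At day 10 it measured 8104, 7956 and 6755 CPM in WT, 3239, 2969 and 3664 CPM in Quaking knockout and 10319, 8690.1 and 6125 CPM in Sam68 knockout. It rose 11.3-fold in WT, 5.65-fold in Quaking knockout and 9.16-fold in Sam68 knockout. At day 10 Quaking knockout cells had 2.31-fold less than WT (log2 fold change -1.21, SE 0.14, adjusted p = 7.90e-07 by edgeR), with no overlap in TMM-scaled CPM. WT replicate 3 held 2875 Apoe counts of 1175919 and Quaking knockout replicate 1 held 3492 of 988210, so this separation rests on the TMM correction. Apoe had 4818 or more counts in each stem cell group, so the rise itself could be compared. The rise in Quaking knockout was smaller than in WT by a log2 difference of -0.998 (SE 0.20, edgeR interaction term, adjusted p = 0.00192). WT and Quaking knockout shared a pool at day 0 but not at day 10, so pool and line cannot be told apart in this term.

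Of the 10 genes, 7 were lower in Quaking knockout than in WT embryoid bodies and 1, Trf, was higher (edgeR, adjusted p below 0.05). Among all tested features 12.8% were lower and 11.1% higher. The median log2 fold change of the 10 genes was -1.52, and that of all features was -0.03. WT and Quaking knockout at day 10 were in different pools, so pool and line cannot be told apart in this comparison. Without the dominated libraries the 7 genes kept negative log2 fold changes, and those of Afp and Trf were -1.03 and 2.70. Scaling by RLE or by upper quartile in place of TMM changed no direction, and single genes were not tested on total counts alone.

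**Figure D2:**
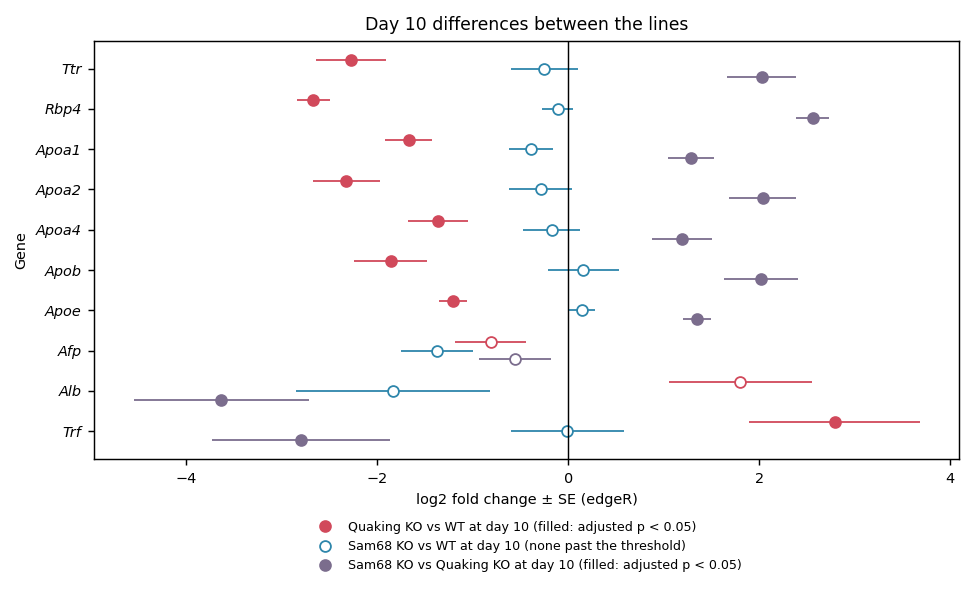
Log2 fold changes at day 10 with SE (edgeR fit of all 18 libraries) for 3 comparisons, with filled points for adjusted p below 0.05. The Quaking knockout points of Ttr, Rbp4, Apoa1, Apoa2, Apoa4, Apob and Apoe lie between -2.67 and -1.21, and the Sam68 knockout points of the same genes lie between -0.39 and 0.16.

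The same 7 genes stood higher in Sam68 than in Quaking knockout embryoid bodies, the comparison made within pool MIX_3. They were 2.28-fold (Apoa4) to 5.89-fold (Rbp4) higher, and no gene's replicates overlapped. Among all tested features 13.0% were higher and 10.6% lower. The log2 fold changes were 2.02 for Ttr, 2.56 for Rbp4, 1.28 for Apoa1, 2.03 for Apoa2, 1.19 for Apoa4, 2.02 for Apob and 1.35 for Apoe. Adjusted p ran from 9.91e-11 for Rbp4 to 0.00679 for Apoa4 (edgeR). This comparison uses the same Quaking knockout libraries as the one against WT. Alb and Trf were lower, as given below. Without the dominated libraries, with 1 Sam68 knockout library left, the 7 genes kept log2 fold changes above 0. Those of Alb and Trf were then -3.74 and -4.41. The Apoa4 call was lost without Sam68 knockout day 10 replicate 1 (edgeR adjusted p = 0.0746) and on thinning (0.158), and the other 6 genes stayed past the threshold under each of the 14 alternatives, 1 of which has that single Sam68 knockout library.

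Sam68 knockout and WT embryoid bodies gave no call among the 10 genes (edgeR, adjusted p below 0.05), where 0.175% of all tested features were called in either direction. At an unadjusted edgeR p below 0.05 there was 1 gene, Afp, and DESeq2 called 0 at an adjusted p below 0.05. For the 7 genes the log2 fold changes ran from -0.39 (Apoa1, SE 0.23) to 0.16 (Apob, SE 0.37), and the replicates of each overlapped between the lines. Without the dominated libraries, with 1 Sam68 knockout library against 2 of WT, 0 genes were called and Ttr, Rbp4, Apoa2 and Apoa4 changed sign, to log2 fold changes of 0.12, 0.12, 0.022 and 0.012. The absence of a call does not show that the levels were equal, and WT and Sam68 knockout were in different pools at day 10.

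Afp, the fetal serum protein that binds fatty acids and, in rodents, estrogen, took another order of lines. It had 14 counts in WT stem cells, 12 of them in replicate 2, and 2 and 3 counts in Quaking and Sam68 knockout stem cells. At day 10 it measured 436, 421 and 239.6 CPM in WT, 209, 246 and 179 CPM in Quaking knockout and 181, 118 and 127 CPM in Sam68 knockout. Quaking knockout overlapped with WT through WT replicate 3, and the difference did not pass the test (log2 fold change -0.81, SE 0.37, adjusted p = 0.138 by edgeR). It did pass without the dominated libraries (log2 fold change -1.03, edgeR adjusted p = 0.0442) and in the fit of those 6 libraries alone (-0.79, adjusted p = 0.0236). Sam68 knockout lay below WT in every library without passing the test (log2 fold change -1.37, SE 0.38, adjusted p = 0.329 by edgeR, and 0.0743 to 0.980 over the alternatives). Between the knockouts Afp overlapped (log2 fold change -0.56, SE 0.38, adjusted p = 0.322 by edgeR), and it passed only in the fit of those 6 libraries alone (0.0347).

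Because ratios of 2 genes within a library do not depend on its scaling, the position of Afp was also described that way. Per 100 Ttr counts there were 29.4, 36.4 and 16.2 Afp counts in WT, 63.9, 100.5 and 63.4 in Quaking knockout and 12.6, 10.8 and 13.6 in Sam68 knockout. Per 100 Rbp4 counts the means were 38.9 ± 8.26 in WT, 144 ± 8.59 in Quaking knockout and 16.6 ± 1.72 in Sam68 knockout (SD, n = 3). Per 100 Apob counts they were 15.95 ± 4.65, 30.5 ± 4.37 and 5.14 ± 0.610. In each of the 3 ratios the lines formed 3 ranges without overlap, highest in Quaking and lowest in Sam68 knockout. Each pair of lines gave the smallest two-sided exact permutation p that 3 against 3 allows, 0.10, or 0.171 after Benjamini-Hochberg adjustment over 24 ratio tests, so none passed. The ratios were chosen after the levels had been seen. Against Rbp4, Apoe was also highest in Quaking knockout, but Sam68 knockout lay above WT: there were 823 ± 45.1 Apoe counts per 100 Rbp4 counts in WT, 2291 ± 506 in Quaking knockout and 975 ± 105 in Sam68 knockout.

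**Figure D3:**
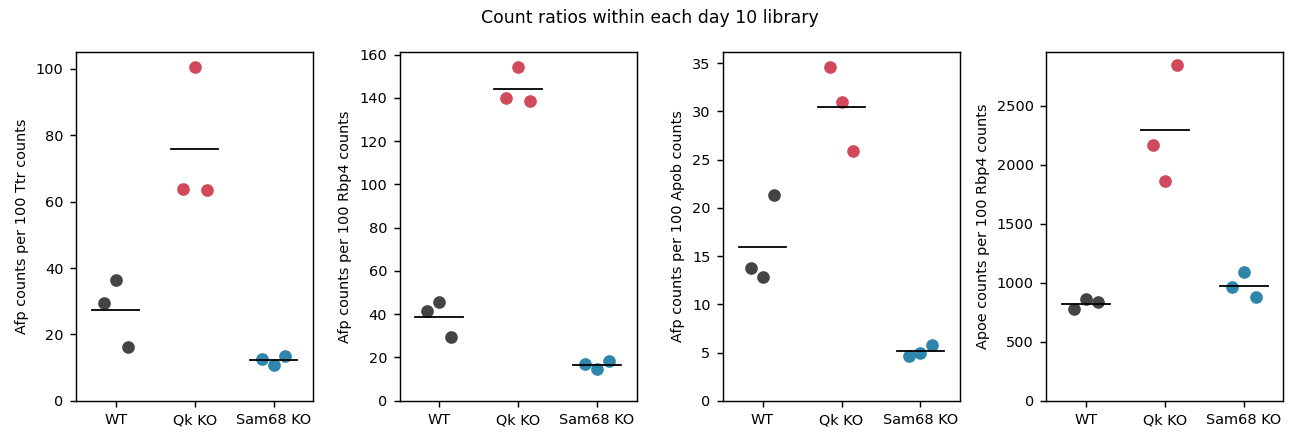
Counts of one gene per 100 counts of another within each day 10 library (linear axes from 0), with points for the 3 libraries of a line and bars for means. The 3 Afp ratios form ranges without overlap, with Quaking knockout highest and Sam68 knockout lowest, and the Apoe to Rbp4 ratio is highest in Quaking knockout.

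Alb, whose promoter window also carries GTTAAT, was close to absent. WT day 10 libraries held 5, 7 and 0 Alb counts, Quaking knockout 4, 11 and 16 and Sam68 knockout 2, 1 and 0. In CPM that was 0.767 ± 0.776 in WT, 3.68 ± 0.823 in Quaking knockout and 0.243 ± 0.239 in Sam68 knockout (SD, n = 3). Quaking knockout values lay above every other library of that day that held an Alb count. They did not pass the test against WT (log2 fold change 1.80, SE 0.75, adjusted p = 0.0848 by edgeR). The 0 counts in WT replicate 3 allow up to 7.05 CPM, so that library cannot be ranked below Quaking knockout. Against Sam68 knockout, which had 3 counts in all, the ratio was 13.5 with a counting interval of 4.21 to 69.0, and the gene passed (edgeR adjusted p = 0.00520). That call was lost without Sam68 knockout day 10 replicate 1 (0.0659) and without the dominated libraries (0.0816), where 1 Sam68 knockout library was left and the log2 fold change was -3.74 against -3.64 with all libraries.

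Trf, transferrin, the iron carrier of plasma, was as sparse. Day 10 counts were 2, 3 and 0 in WT, 3, 8 and 16 in Quaking knockout and 1, 2 and 1 in Sam68 knockout. It measured 3.11 ± 1.24 CPM in Quaking knockout, against 0.321 ± 0.333 in WT and 0.669 ± 0.471 in Sam68 knockout (SD, n = 3). Quaking knockout values lay above every other library of that day that held a Trf count. WT replicate 3 held none, which allows up to 7.05 CPM, so it cannot be ranked below Quaking knockout. It was higher than in WT (log2 fold change 2.79, SE 0.89, adjusted p = 0.0242 by edgeR) and Sam68 knockout was lower than Quaking knockout (log2 fold change -2.80, SE 0.93, adjusted p = 0.0303). Against WT the call was lost without WT day 10 replicates 1 (edgeR adjusted p = 0.158) or 2 (0.0629) or Quaking knockout replicate 3 (0.133), with a replicate block (0.0604), with no filter (0.0961), without the dominated libraries (0.0707) and by DESeq2 (0.0741). Between the knockouts it was lost without Quaking knockout replicate 3 (0.157) or Sam68 knockout replicates 1 (0.278) or 2 (0.0514), with a replicate block (0.0597), with no filter (0.114), without the dominated libraries (0.0654) and by DESeq2 (0.102). Over time Trf rose in Quaking knockout (13.2-fold by counts, interval 3.31 to 114, edgeR adjusted p = 0.00351), while WT had 5 counts at day 10 and 2 at day 0.

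**Figure D4:**
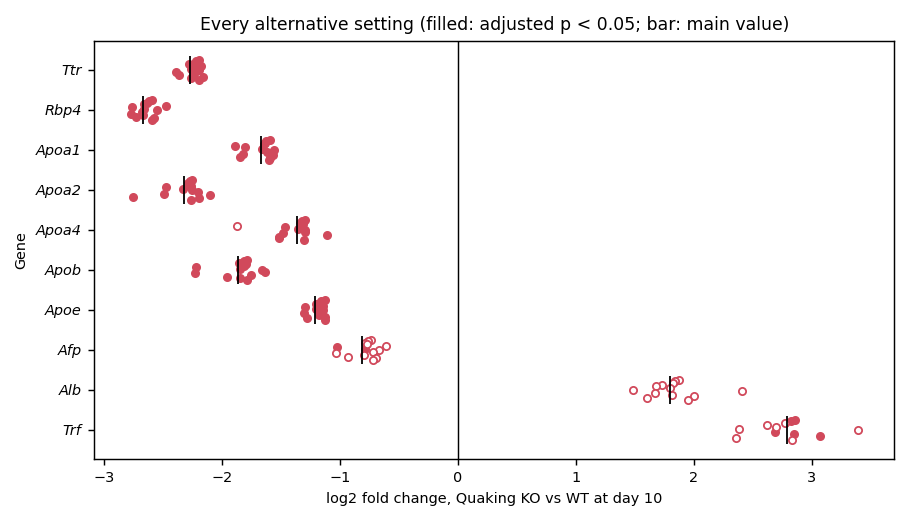
Log2 fold change of each gene between Quaking knockout and WT at day 10 under each alternative setting (points, filled where adjusted p is below 0.05), with the reported value as a bar. Ttr, Rbp4, Apoa1, Apoa2, Apob and Apoe are filled throughout, Apoa4 has 1 open point, and Trf is open in 7 of 12 settings.

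Before differentiation only Apoe had enough footprints to compare the lines. In stem cells no gene was called between Quaking knockout and WT, a comparison within pool MIX_1 in which 0.365% of features were called. At an unadjusted edgeR p below 0.05 there were 2 genes, Rbp4 and Apoa4, and DESeq2 called 0 at an adjusted p below 0.05. None of the 10 genes was called between Sam68 knockout and WT, where 1.26% of features were. An unadjusted edgeR p below 0.05 was reached by 3 genes, Ttr, Apoa4 and Apoe, and DESeq2 called 0 after adjustment. Apoe measured 674 ± 75.2 CPM in WT, 582 ± 9.35 in Quaking knockout and 915 ± 55.3 in Sam68 knockout (SD, n = 3). Sam68 knockout stem cells were in pool MIX_2 and the others in MIX_1, so pool and line cannot be told apart in Sam68 comparisons. Sam68 knockout stood above Quaking knockout (log2 fold change 0.65, SE 0.14, adjusted p = 0.00855 by edgeR), the 1 gene of the 10 called there against 2.55% of features called higher. The call was lost with no filter on low counts (edgeR adjusted p = 0.199) and on thinning (0.279). The difference between Sam68 knockout and WT missed the threshold (log2 fold change 0.44, SE 0.14, adjusted p = 0.173 by edgeR), passing without the dominated libraries (0.0243) and in the fit of those 6 libraries alone (0.0475).

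The test of a different rise over time, an interaction of line and day, called 2 of the 10 genes for Quaking knockout, against 8.88% of all features. They were Apoe, given above, and Apoa4 (log2 difference -5.30, SE 1.48, edgeR adjusted p = 0.0250). Neither knockout shared a pool with WT at day 10, so pool and line cannot be told apart in this test. The Apoa4 term rests on 0 WT and 3 Quaking knockout counts at day 0, so its size is no measured fold. It was lost without WT day 0 replicate 3 (edgeR adjusted p = 0.0666), without Quaking knockout day 0 replicates 1 (0.202) or 2 (0.0775), on thinning (0.621) and when fitted with those groups alone (0.0520). Apob missed the threshold (log2 difference -2.48, SE 0.87, edgeR adjusted p = 0.104) and passed without WT day 10 replicate 3 (0.0233), without the dominated libraries (0.00191) and by DESeq2 (0.0212). For Sam68 knockout no gene was called, against 0.431% of all features. An unadjusted edgeR p below 0.05 was reached by 2 genes, Ttr and Apoa4, and DESeq2 called 0 after adjustment.

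Among 6615 other features with a mean of at least 20 CPM at day 10, those most like the 10 genes over the 9 day 10 libraries were ENSMUSG00000028024 (Pearson r = 0.990 with the mean standardised log2 CPM of the 10) and ENSMUSG00000025130 (r = 0.976). The first measured 68.3 ± 23.2 CPM in WT, 21.7 ± 1.99 in Quaking knockout and 51.1 ± 10.6 in Sam68 knockout at day 10, and at most 0.465 CPM on average in any stem cell group. The second was already at 466 ± 43.7 CPM in WT stem cells and measured 1453 ± 322, 898 ± 111 and 1325 ± 204 CPM at day 10. The libraries share depth and pools and fall into lines, so these values describe likeness only. Their symbols are not paired with identifiers in the tables used here.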

How the data were processed

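Footprints of 28 to 32 nucleotides, protected from RNase I, were sequenced by the submitters. The authors deposited raw counts per Ensembl gene for each of the 18 libraries, and the submitters' processing notes name bcl2fastq 2.17.1.14, Bowtie2 and STAR 2.5.3a with mm10. The sources used here do not give the counting program, the annotation release or whether counting used strand.

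The counts were tested with edgeR 4.0.16 (R 4.3.3): filterByExpr by group (13701 features, at least 99.4% of each library's counts), TMM scaling, and a robust quasi-likelihood fit of all 18 libraries with a mean per group. P-values were two-sided and adjusted by Benjamini-Hochberg over all tested features, with a threshold of 0.05, and each SE is the fold change divided by the square root of its F statistic. CPM used TMM library sizes. Where a group had 3 counts or fewer, ratios of counts with 95% exact binomial intervals are given, or, at 0, a lower bound from a floor of 3 counts per library. A count of 0 allows 0.233 to 7.05 CPM, depending on the library. DESeq2 1.42.0 and the other alternatives are described in the closing section. The procedure was tested on simulated data.

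No replicates were duplicates: the lowest chi-square per degree of freedom between them was 5.32. In 0 of 9 comparisons did all 3 pairs of same-numbered replicates deviate together (r over 0.1), so numbers were not used as pairs. Nothing beyond the submitters' word triplicate says how replicates were separated, so p-values measure the spread between these libraries. Promoter windows of the chromosome that holds Ttr were left out of the motif search and its shares. The members and lists were chosen with earlier results of these data known. The genes named are the 10 members and the features most like them. Of 127 symbols in 12 further lists, 0 could be matched to identifiers, so those lists, cell type markers and levels per coding length were not analysed here.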

Additional observations from a re-analysis of the deposited data

Results flagged for a closer look

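The change from day 0 to day 10 differed between Quaking knockout and WT for 2 of the 10 genes by the interaction term itself (edgeR's quasi-likelihood test). The groups were in different pools at day 10, so pool and line cannot be told apart here. For Apoe the log2 difference was -0.998 (SE 0.20, adjusted p = 0.00192), with the 3 Quaking knockout libraries below all WT libraries in TMM-scaled CPM on both days. For Apoa4 it was -5.30 (SE 1.48, adjusted p = 0.0250), and it rests on 0 counts in WT and 3 in Quaking knockout stem cells.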

How the results depend on the processing

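Ttr, Rbp4, Apoa1, Apoa2, Apob and Apoe stayed lower in Quaking knockout than in WT at day 10, past the threshold, under each of 14 alternatives. Their log2 fold changes ran from -2.39 to -2.16, -2.78 to -2.47, -1.89 to -1.56, -2.76 to -2.10, -2.23 to -1.64 and -1.31 to -1.13. The smaller rise of Apoe kept its call under 20 alternatives (-1.09 to -0.90), none of which separates pool from line. In all, 1029 log2 fold changes of single genes kept direction and side of the threshold, 33 lost it, 9 gained it and 18 changed direction. The 1 effect of day from the fit with pool as a block was set against each of the 3 lines, so it enters this tally 3 times per gene.

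Replicate numbers did not pair the libraries; with the replicate block, 7 genes stayed lower in Quaking knockout than in WT, Trf lost its call (2.62, adjusted p = 0.0604) and Trf in Sam68 knockout against WT turned to 0.00175. That Trf value was also above 0 with no filter (0.035) and by DESeq2 (0.15), and ran from -0.69 to 1.05 without single replicates. Without single replicates Sam68 knockout against WT ran from -0.33 to 0.020 for Rbp4, -0.21 to 0.39 for Apob and -0.053 to 0.33 for Apoe. Without the 3 dominated libraries it was 0.12 for Ttr, 0.12 for Rbp4, 0.022 for Apoa2 and 0.012 for Apoa4. On thinning to the smallest total, Rbp4 between the knockouts at day 0 was -1.36 and the Apob interaction in Sam68 knockout 0.16.

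At day 0 Sam68 knockout against WT had 1 call with no filter, without the dominated libraries and when fitted with the compared groups alone. Sam68 against Quaking knockout had 0 with no filter and on thinning. The interaction for Quaking knockout had 1 call on thinning and with the compared groups alone, and 1 to 3 without single replicates. With pool as a block, the effect of day is the WT rise plus the Sam68 knockout rise minus the Quaking knockout rise. It was called higher for 6 genes and was -0.96 for Alb. The Alb log2 fold changes of the single lines were 4.11 in WT, 7.19 in Quaking knockout and 2.11 in Sam68 knockout. The pool fit gives no value for a single line. The cause of the other changes was not tested.

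The summed CPM of the 10 genes in Quaking knockout stem cells was 613 with RLE and 611 with upper quartile scaling. With no scaling beyond the total it was 840.0 in WT, 713 in Quaking and 1153 in Sam68 knockout stem cells, and 5423 and 9955 in Quaking and Sam68 knockout embryoid bodies. Without the dominated libraries it was 17073 in WT (2 libraries) and 20498 in Sam68 knockout embryoid bodies (1 library). Depth limits Alb and Trf, with at most 16 counts in a library.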
